A study of Rattus norvegicus with 8 samples.

Results

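Myofibroblasts (MF) were compared with the cardiac fibroblasts (CF) they were derived from, using the 2 MF and 2 CF libraries, 4 of the 8 RNA sequencing libraries of the study. The libraries were chosen by their labels alone, and the 4 libraries of MFs exposed to microcurrents were left out. CFs were primary cells of neonatal Wistar Kyoto rats grown in high-glucose DMEM with 10% FBS. MFs were obtained from them by repeated passaging in low-serum medium, and neither group received a current. The medium of the MFs just before RNA isolation is not given in the sources used here. Passage, serum and time in culture changed together between the groups and cannot be told apart. The sources used here do not say how many animals were pooled or whether the 2 libraries of a group came from separate isolations, so p-values measure only the spread between these libraries, which may be technical.

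Cardiac fibroblasts are the matrix-keeping cells of the heart wall. After injury they can turn into myofibroblasts, which assemble contractile stress fibres, secrete collagen and fibronectin, and stiffen the tissue when they persist. In culture the same change is driven by passaging, by a stiff dish and by transforming growth factor beta, and withdrawal of serum takes most cells out of the division cycle. Which of these programs the genes below belong to could not be read here, because the genes are given by Ensembl rat ID and no source used here pairs these IDs with gene symbols. For the same reason the labelled cell types were not checked against their markers, no promoter or protein sequence is shown, and only 4 IDs are printed.

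The comparison asked how the transcripts of the cells differed after differentiation. A count is the number of sequenced fragments that the salmon program assigned to a gene. Totals ranged from 26473085 to 37903701 estimated counts per library, and 13260 to 13436 genes had at least 10 counts in a library. Of 21867 genes listed, 13538 had enough counts to be tested with edgeR's quasi-likelihood test on the 4 libraries. Calls required a p below 0.05 after Benjamini-Hochberg adjustment over all tested genes and a log2 fold change of 1 or more in either direction, the thresholds of the study. There were 1137 called genes, 8.40% of those tested. MF libraries were higher for 756 of them (5.58% of the tested genes) and lower for 381 (2.81%).

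Genes called higher in MF had larger fold changes at the median than genes called lower. The median log2 fold change was 2.11 among the 756 higher genes, with quartiles of 1.45 and 3.24. Among the 381 lower genes it was -1.61, with quartiles of -2.36 and -1.27, beside a median of -0.01 over all tested genes. These medians describe genes picked by the same values and carry no test. A change of at least 4-fold was seen in 404 higher and 126 lower genes, and one of at least 16-fold in 127 higher and 24 lower genes. At 64-fold or more there were 49 higher and 7 lower genes. Fold changes of genes with few counts in 1 group depend on the small count that edgeR adds, so the counts at the far end are approximate.

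**Figure D1:**
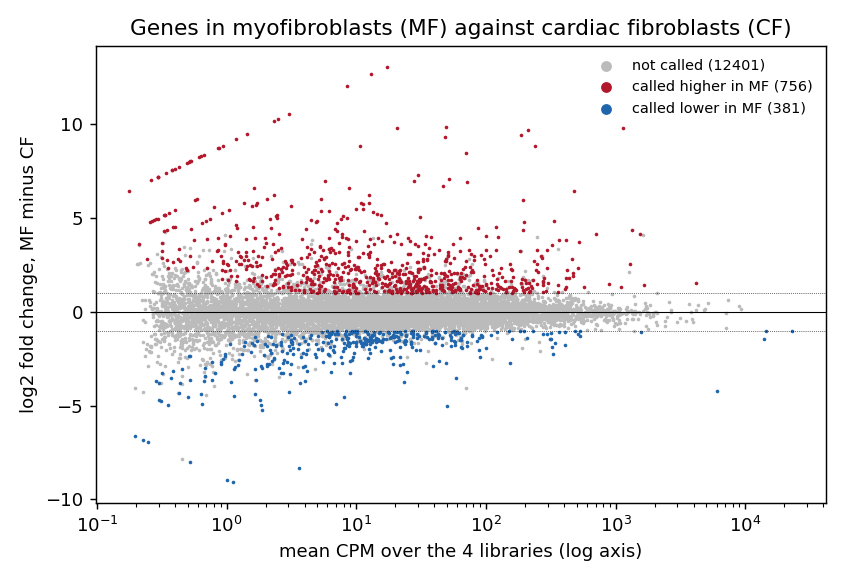
Log2 fold change of MF against CF (vertical axis) by the mean CPM (counts scaled to library size) over the 4 libraries (log axis), 1 point per tested gene, with 756 genes called higher in red and 381 called lower in blue. Dotted lines mark a log2 fold change of 1 and -1, and red points reach further from 0 than blue points.

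Higher genes also outnumbered lower genes under looser conditions, in sets that contain the called genes and so are not separate evidence. Without any condition on p, 1318 genes had a log2 fold change of at least 1 and 900 one of at most -1. With the adjusted p alone and no condition on the fold change, 994 genes were higher and 553 lower, together 11.4% of those tested. All 1137 called genes had groups that did not overlap in CPM, which was also true of 65.2% of all tested genes. Without a condition on p or fold change the directions were nearly even. Both MF libraries lay above both CF libraries in 4419 tested genes and below both in 4407. The scaling between libraries places most genes near no change, so this balance was set in part by the scaling. Calls were made at every depth. Of the 3385 genes with the lowest mean CPM (up to 6.17) 254 were higher and 131 lower, and of the 3385 with the highest (58.7 and above) 162 were higher and 53 lower. The median standard error of a log2 fold change was 0.38 for the former and 0.14 for the latter, so changes of genes with low counts are less precise.

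The spread within groups bears on all of these counts. The 2 MF libraries differed by over 2-fold in 40 of the tested genes, on log2(CPM + 1), and the 2 CF libraries in 554. Leaving out MF replicate 1 or 2, so that the spread was taken from the CF pair, left 222 or 228 called genes, of which 183 or 198 were higher and 39 or 30 lower. Without CF replicate 2 the spread came from the MF pair and 2489 genes were called, and without CF replicate 1 there were 1537. In these 4 fits the lone library is assumed to vary like the pair that was kept.

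The share of a library that the called genes occupied is given next. The genes were picked by these same counts, so a higher or lower share in MF was fixed in advance. Only the size of the shares is described. The 756 higher genes took 1.68% of all counts in CF 1 and 2.16% in CF 2. In MF 1 and MF 2 they took 8.004% and 7.79%. The 381 lower genes took 10.2% and 10.4% of the counts in the CF libraries and 4.304% and 3.93% in the MF libraries. The 10 lower genes with most counts held 83.8% and 85.6% of all counts of the lower genes in CF 1 and CF 2. Among the higher genes the corresponding 10 held 30.9% in MF 1 and 29.4% in MF 2. Counts of the lower genes were thus concentrated in a few genes, in MF too (86.5% in MF 1 and 85.6% in MF 2). Those of the higher genes were spread over more genes. The lower genes ranked 1 and 3 by mean CPM in CF took 3.33% and 2.11% of all counts in CF 1. In CF 2 they took 2.81% and 1.74%. Their log2 fold changes of -1.01 and -1.04 were close to the threshold, so the share of the lower genes depends on where it was set.

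**Figure D2:**
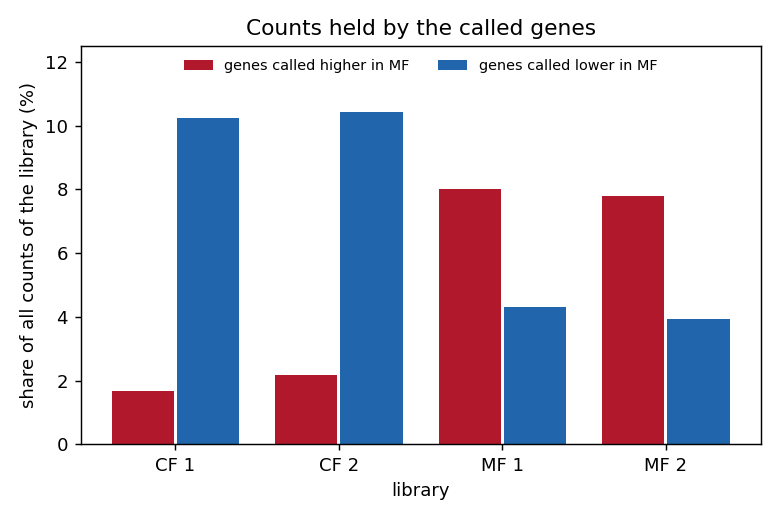
Share of all counts of each library (percent, vertical axis from 0) taken by the 756 genes called higher in MF (red) and the 381 called lower (blue), 1 pair of bars per library. Red bars lie at 1.68% and 2.16% in CF and at 8.004% and 7.79% in MF, and blue bars at 10.2% and 10.4% in CF and at 4.304% and 3.93% in MF.

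Genes that took the most counts were largely the same in both groups. Ranked by mean CPM, which is not corrected for gene length, 8 of the top 10 genes and 80 of the top 100 were shared, as were 809 of the top 1000. The first 4 genes in CF were all called lower in MF. Ranking by the level in CF favours genes that are lower in MF, so their shared direction is no support. The first had 33285 and 28364 CPM in CF 1 and CF 2 and 16659 and 13905 CPM in MF 1 and MF 2, and it remained first in MF. Its log2 fold change was -1.01 ± 0.19 (SE, n = 2 per group, edgeR adjusted p = 0.0387), close to the threshold. The second in CF went from 18203 and 22939 CPM to 7613 and 7220 CPM, with a log2 fold change of -1.47 ± 0.19 (SE, edgeR adjusted p = 0.0176). The third went from 21088 and 17564 CPM to 9913 and 8943 CPM, with a log2 fold change of -1.04 ± 0.18 (SE, edgeR adjusted p = 0.0326). In each of these genes both MF libraries lay below both CF libraries. None of the 3 was called without MF replicate 1 (adjusted p from edgeR of 0.256, 0.163 and 0.263 in rank order) or MF replicate 2 (0.348, 0.167 and 0.305). Without CF replicate 1 the genes at ranks 1 and 3 missed the fold threshold, at log2 fold changes of -0.89 and -0.90.

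Of the 12 genes in the top 10 of either group, the fourth in CF had the most negative log2 fold change. It had 6941 CPM in CF 1 and 15869 CPM in CF 2, against 503 and 703 CPM in the MF libraries, and its rank fell from 4 to 219. The log2 fold change was -4.24 ± 0.49 (SE, n = 2 per group, edgeR adjusted p = 0.0139). It took 0.694% and 1.57% of the counts in CF and 0.0502% and 0.0710% in MF. The CF libraries differed by over 2-fold here, and without CF replicate 2 the log2 fold change was -3.54. The adjusted p rose to 0.0922 without MF replicate 1 and 0.0769 without MF replicate 2, so the call was lost.

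In the opposite direction, 1 gene of the MF top 10 was called higher. It rose from rank 33 in CF to rank 8 in MF, from 1652 and 2607 CPM in CF to 6609 and 5724 CPM in MF, with a log2 fold change of 1.53 ± 0.27 (SE, n = 2 per group, edgeR adjusted p = 0.0322). Its adjusted p was 0.168 without MF replicate 1 and 0.125 without MF replicate 2. The fifth gene in CF had 10095 and 8004 CPM there and 5275 and 4831 CPM in MF, which gave a log2 fold change of -0.84 and an adjusted p of 0.0531 from edgeR. It was not called. Among the 100 genes with most counts in MF, 9 were called higher and 4 lower. Among the 100 with most counts in CF, 1 was called higher and 5 lower. Over all tested genes, 5.58% were called higher and 2.81% lower. Ranking by the mean of 1 group favours genes that are high in that group, so these top lists carry no test of direction.

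**Figure D3:**
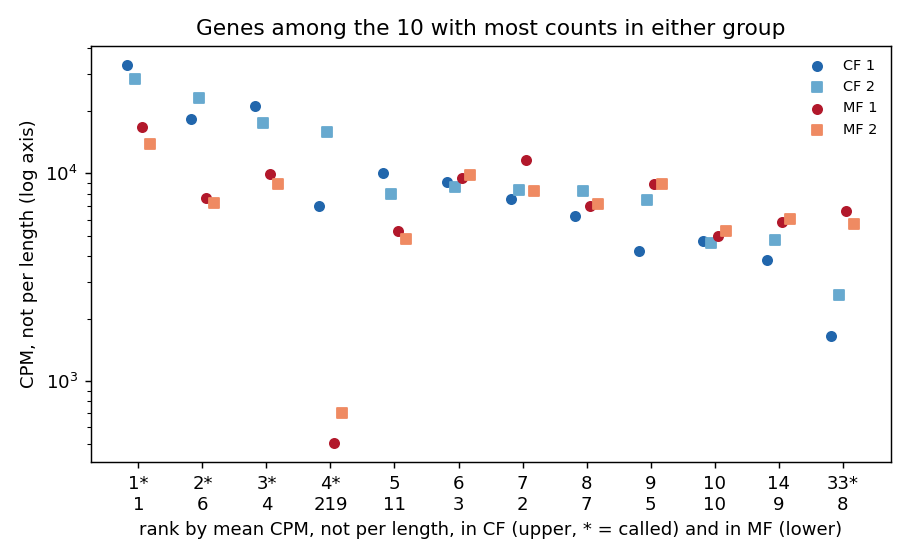
CPM (log axis, not corrected for length) in each library for the 12 genes among the 10 with most counts in CF or in MF, ordered by rank in CF. The gene at rank 4 in CF drops to 503 and 703 CPM in MF, and the gene at rank 33 in CF is the only called one whose MF points lie above its CF points.

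The 4 printed IDs are those with the largest changes in each direction, among called genes with a mean of at least 100 estimated counts in the higher group. ENSRNOG00000000837 had estimated counts of 0 in both CF libraries and of 917 and 948 in MF 1 and MF 2. With a floor of 3 counts over both CF libraries, this is at least 803-fold higher in MF (edgeR adjusted p = 0.00226). The zeros were not shared by the authors' second table of whole-number counts from the same libraries, which listed 9 and 15 counts in CF and 744 and 740 in MF, with a log2 fold change of 6.25. The direction was the same in both tables, but the size of the change depends on the table.

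ENSRNOG00000024986 had 0 estimated counts in both CF libraries too, and 696 and 711 in MF 1 and MF 2. This is at least 606-fold higher in MF by the same floor (edgeR adjusted p = 0.00290). The second table also listed 0 in both CF libraries, with 423 and 448 counts in MF. For this gene both tables place the CF libraries at the limit of detection, and for both IDs the MF libraries were close to each other.

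ENSRNOG00000028992 fell most. Its estimated counts were 438 in CF 1, 92 in CF 2, 1 in MF 1 and 0 in MF 2. The pooled ratio was 410-fold, with an exact 95% interval of 73.3 to 16238 that covers counting error only (edgeR adjusted p = 0.0263). The CF libraries differed widely from each other. The fitted log2 fold change was -8.33 with all libraries, -6.99 without CF replicate 1, -9.00 without CF replicate 2, -10.86 without MF replicate 1 and -7.47 without MF replicate 2, and the adjusted p rose to 0.161 and 0.164 in the fits without an MF library. ENSRNOG00000032517 had 138 and 114 estimated counts in CF and 4 and 1 in MF, a pooled ratio of 39.0-fold with an exact 95% interval of 16.5 to 121 (edgeR adjusted p = 0.0105). Here the CF libraries were close to each other, at 3.64 and 3.61 CPM, and the second table gave 93 and 75 counts against 3 and 1. Its fitted log2 fold change of -5.23 moved to -6.46 without MF replicate 1 and to -4.58 without MF replicate 2.

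**Figure D4:**
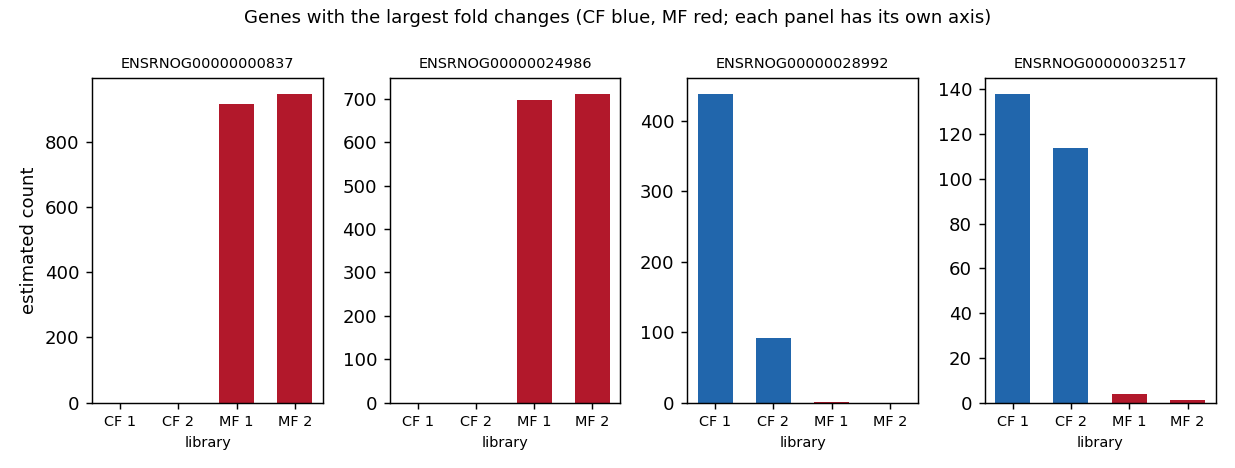
Estimated counts (bars, from 0, a separate axis per panel) of the 4 printed IDs in each of the 4 libraries, CF in blue and MF in red. Both genes on the left are at 0 in CF, and both on the right are at 4 counts or fewer in MF.

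Genes seen almost only in 1 group were found more on the MF side. Under 10 counts in both CF libraries with a mean of at least 100 in MF was seen in 21 genes, 3 of them with a mean of at least 1000. The reverse, under 10 counts in both MF libraries with a mean of at least 100 in CF, was seen in 5 genes, none with a mean of at least 1000. These genes passed the filter on low counts through the group where they were high, so that all of them were called is no support. An estimated count of 0 was not always an absence. Of 6 genes at 0 in both CF libraries with a mean of at least 100 in MF, 4 were in the second table, which gave under 10 counts in both CF libraries for 2 of them and up to 220 for the others.

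The CF libraries were not placed evenly relative to MF. Across the tested genes, log2(CPM + 1) of CF 2 correlated with MF 1 and MF 2 at 0.953 and 0.955 (Pearson, over genes, which are not replicates), and that of CF 1 at 0.930 and 0.931. CF 1 and CF 2 correlated at 0.980, and MF 1 and MF 2 at 0.995. Over 2-fold apart were 1925 and 1893 genes between CF 1 and the MF libraries, and 1282 and 1227 between CF 2 and the MF libraries. CF 2 exceeded CF 1 in 76.3% of the 756 genes called higher in MF, against 49.7% of all tested genes. The median difference between CF 2 and CF 1 over the higher genes was 0.23 on log2(CPM + 1), and the median difference from MF 1 was 1.69 for CF 1 and 1.42 for CF 2.

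For the genes lower in MF the shift between the CF libraries had the opposite sign. CF 2 exceeded CF 1 in 40.2% of these 381 genes, with a median difference of -0.16. The median difference of MF 1 was -1.30 from CF 1 and -1.18 from CF 2. On both sets of genes CF 2 therefore lay nearer to MF than CF 1 did. Between the MF libraries, MF 2 exceeded MF 1 in 50.4% of the higher and 52.8% of the lower genes, against 55.6% of all tested genes, with a median difference of 0.0022 and 0.0015 over the called sets and of 0.021 over all. What made the CF libraries differ was not tested.

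**Figure D5:**
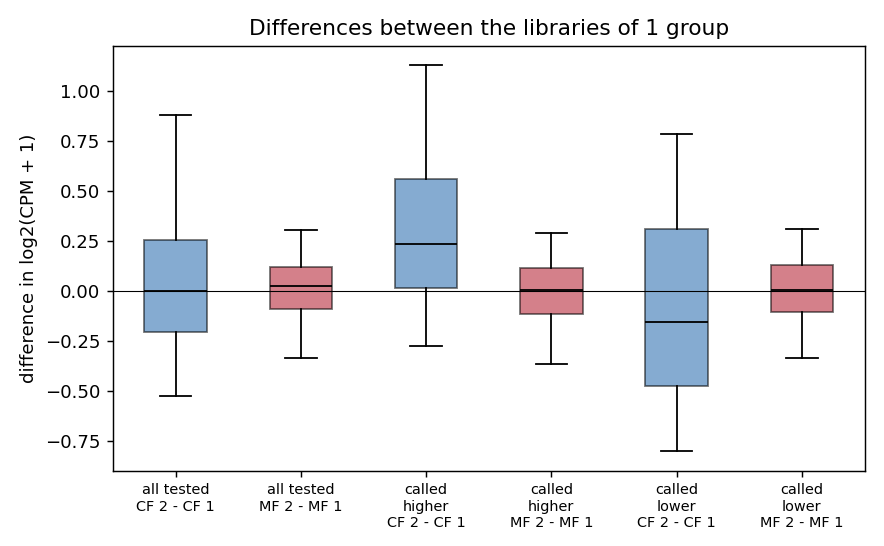
Difference in log2(CPM + 1) between the 2 libraries of CF (blue) and of MF (red), for all tested genes, the 756 called higher and the 381 called lower. Boxes show quartiles with the median as a line and whiskers run from percentile 5 to 95, and the CF boxes have medians of 0.23 for the higher and -0.16 for the lower genes.

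A second count of the same libraries gave largely the same changes. The whole-number table holds 13341 genes, and 11581 genes could be tested in both tables. It is another count of the same RNA and adds no replicate. Of the 756 higher genes 634 could be tested there, and 633 of them had the same sign and 573 were called in the same direction. Of the 381 lower genes 324 could be tested, 322 had the same sign and 282 were called. Over all genes that the second count allowed to be tested, 8.06% were called, and 6.85% over the IDs it alone lists. The log2 fold changes of the tables lay within 0.5 of each other for 591 of the 634 higher (93.2%) and 315 of the 324 lower genes (97.2%). Over all genes tested in both tables, 97.8% lay within 0.5 and 93.4% had the same sign. No gene was called in opposite directions, and 10 genes called in either table had log2 fold changes over 2 apart.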

How the data were processed

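RNA sequencing data of 2 CF and 2 MF libraries were analysed. The authors deposited estimated counts per gene (salmon on the rn6 transcriptome, summarized with tximeta), the same counts normalized with DESeq2 and held here as a signal, and variance stabilised values on a log2 scale, which were not used. The authors also deposited whole-number counts per gene, each gene with a sum of at least 80, whose pipeline is not given in the sources used here. Per the labels, reads were trimmed with fastp and aligned with STAR, and the submitters' processing notes list DESeq2 1.28.1. The methods of the study differ: they name salmon and a later DESeq2 version and mention neither fastp nor STAR. Which set of counts the labels describe is not given.

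Estimated counts were rounded and compared in R 4.3.3 with limma 3.58.1 and edgeR 4.0.16, by filterByExpr, TMM scaling, robust dispersions and the quasi-likelihood F test, which left 2 residual degrees of freedom. Dividing a log2 fold change by the root of its F statistic gave the standard error. The common biological coefficient of variation was 18.5%. Figures were drawn with matplotlib 3.10.9 in Python 3.11.15. The fit was also run on simulated counts in which all genes had the same spread in both groups. In the data the CF libraries differed more than the MF libraries, and the simulation could not test that setting. Alternatives were DESeq2 1.42.0, RLE and upper quartile scaling, other filters, thresholds and glmTreat, all 8 libraries in the fit, the whole-number counts, length offsets from the normalized signal, a replicate block and each library left out. Leaving out all-or-none genes was chosen after seeing the data. Depth limits precision, and intervals cover counting error only.

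The comparison to describe, the lists and the tests were chosen with earlier results of these data known, and the libraries in it follow from their labels. IDs were printed by a rule, namely the 2 largest and 2 smallest log2 fold changes among called genes with a mean of at least 100 counts in the higher group and no overlap. Gene lists and marker lists were written but could not be used, since the RefSeq gene table used here (GRCr8) gives no Ensembl IDs to match.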

Additional observations from a re-analysis of the deposited data

Results flagged for a closer look

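Of 1431 tested gene IDs that the whole-number table alone lists, 98 (6.85%) passed the thresholds, 64 with higher and 34 with lower counts in MF, against 8.21% of the IDs that both tables list. They drew attention because they lie outside the estimated counts on which the calls above rest. Their median count over the called genes was 240.4 per library.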

How the results depend on the processing

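Without 1 library, 222 to 2489 genes were called in all, 183 to 1593 higher and 30 to 896 lower, with the lowest totals without an MF library and the highest without CF replicate 2. With the fold threshold and an adjusted p under 0.01, 207 genes were called, 175 higher and 32 lower, and glmTreat against a log2 fold change of 1 called 261, 214 higher and 47 lower. The DESeq2 Wald test called 1656 genes, of which 626 were lower. The replicate block called 1546, of which 572 were lower. No source used here ties libraries of the same number, and the deviations of the same-numbered CF and MF libraries correlated at 0.0933 over genes. Whether the numbers mark a shared isolation or batch was not tested. The cause of these changes was not tested, except that fits without 1 library take the spread from the pair that is left. The total moved by less than 1.5 times with upper quartile or RLE scaling, both filters, all 8 libraries, the whole-number table, length offsets and leaving out all-or-none genes. The same held for the DESeq2 Wald test, the replicate block and the adjusted p alone. With the Wald test and the block, only the count of lower genes moved by more. Upper quartile scaling moved the median of all genes to -0.07. Of 52 refitted fold changes of the 4 printed IDs, none changed sign and 2 lost the call, and other thresholds on the same fold changes lost 3 of 12 calls. The filter of at least 10 counts in every library dropped all 4 printed IDs, so that fit is not among the 52. The sign was fixed in part by choosing genes whose groups do not overlap. Gene lists were not recomputed, as no symbols could be paired. With 2 libraries a group, small changes were not detectable for genes with few counts.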
